A study of Drosophila melanogaster with 14 samples.

Results

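copia is a retrotransposon of Drosophila melanogaster, and its RNA was measured in heads of tau transgenic flies and of control flies. Its copies were taken from the table of transposable element counts as the insertions whose FlyBase symbol carries the family name copia before the braces, as in copia{}342. This gave 35 of the 5392 insertions listed. Of these 35 copies, 28 held at least 1 count and 7 held 0 counts in all 6 libraries.

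copia belongs to the LTR retrotransposons, elements flanked by long terminal repeats that are transcribed into RNA, packed into virus-like particles and copied back into DNA by reverse transcriptase. It is the type element of the Ty1/copia group. Its single open reading frame encodes the Gag protein of the particle together with a protease, an integrase and the reverse transcriptase, and its promoter lies in the terminal repeat. The copies of a young family such as copia are close to identical in sequence, so a short read often matches several of them.

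The control flies are called wild type in the labels and the others tau transgenic, with tau being the microtubule-binding protein that aggregates in tauopathies. Neither the driver, promoter or variant of the transgene nor the age or sex of the flies is stated. Each genotype had 3 total RNA libraries, each from a pool of 6 heads (500 ng of RNA, 18 heads in a genotype) after depletion of ribosomal RNA, and the study calls them independent biological replicates. All flies were raised and aged under the same regime of temperature, light and food. The libraries held 232572 to 289818 counts in transposable elements in control and 76721 to 331009 in tau, with tau 1 the shallowest. The table holds no genes other than transposons, so neither the labelled tissue nor the transgene could be checked against gene counts.

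copia RNA rose in tau heads, with a mean level 3.01 times that of control heads. Levels are given as counts per 1000000 transposon reads (CPM), scaled with TMM factors, which assume that most features do not change. The family stood at 56046, 55484 and 51192 CPM in the 3 control libraries and at 140453, 154492 and 194917 CPM in the 3 tau libraries. Every tau library lay far above every control library, and the spread was wider in tau, with a coefficient of variation of 17.3% against 4.89%. The log2 fold change was 1.59 ± 0.120 (SE, n = 3 each, edgeR quasi-likelihood test, adjusted p = 3.20e-05 over 116 families). In that test 17.2% of families were called higher in tau, and 25.0% of families had every tau library above every control library. Only TART-A had a larger log2 fold change among the 116 families, whose median was 0.01. In RNA of whole heads, more cells that hold copia RNA and more copia RNA per cell cannot be told apart.

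As a share of all transposon counts, which needs no scaling factor, copia held 5.74% (95% Wilson interval 5.65 to 5.82) in control 1, 5.67% (5.59 to 5.76) in control 2 and 5.33% (5.24 to 5.42) in control 3. In tau it held 13.9% (13.6 to 14.1) in tau 1, 15.1% (14.9 to 15.2) in tau 2 and 18.6% (18.5 to 18.8) in tau 3. The tau libraries differed among themselves by more than counting error, and the groups were far apart. The mean share went from 5.58% ± 0.221 to 15.8% ± 2.48 (SD, n = 3 each), with a two-sided exact permutation p of 0.1, which 3 libraries against 3 cannot go below. copia ranked number 3 by counts among the families in each control library, where roo or Doc held the most counts outside copia, and number 1 in each tau library. The intervals cover counting error within a library only, and they treat counts as independent. The reads carry no molecular identifiers, so the intervals may be too narrow even for that.

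**Figure D1:**
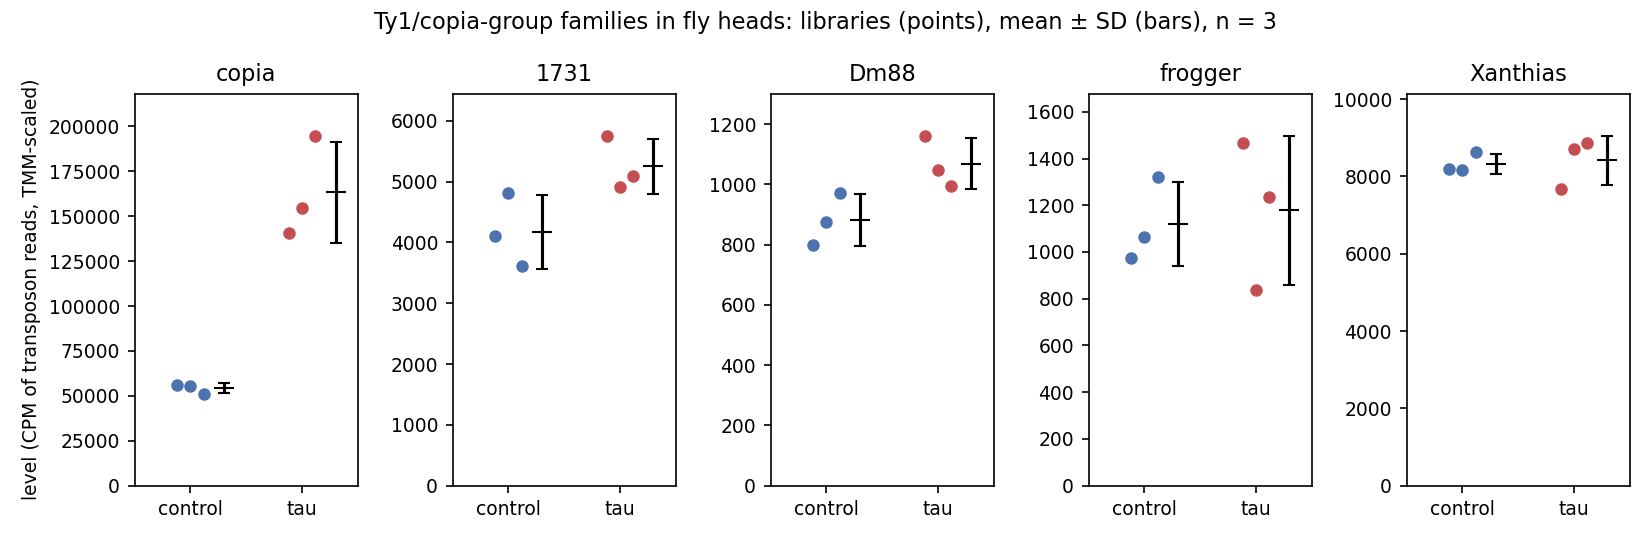
Level of the 5 Ty1/copia-group families in CPM on linear axes that start at 0, with 1 panel per family, a point for each of 3 control (blue) and 3 tau (red) libraries, and a bar for the mean ± SD. The copia libraries form separate groups at 51192 to 56046 and 140453 to 194917 CPM, while the points of frogger and Xanthias overlap.

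None of the other Ty1/copia-group families passed the same test. The list, written from general knowledge of fly transposons, held Dm88, frogger, Xanthias and a family of 13 insertions whose FlyBase name is a bare number. Of these 4, 0 were called in edgeR, against 31.0% of all families called in either direction, and 2 had an unadjusted p under 0.05. The family of 13 insertions had a log2 fold change of 0.32 ± 0.112 (SE, adjusted p = 0.0659), with 4110, 4817 and 3608 CPM in control and 5758, 4905 and 5092 in tau. Dm88 had a log2 fold change of 0.26 ± 0.104 (adjusted p = 0.0987). In both, all tau libraries lay above all control libraries, by small margins. The family of 13 insertions passed with DESeq2 (adjusted p = 0.0385), with the replicate number as a block (0.0367) and without control 2 (0.0147). frogger and Xanthias both had log2 fold changes of 0.02, which turned negative with library totals, with RLE factors and with the authors' size factors. copia made up 87.6% of the counts of the 5 families, so its own level sets the level of the group.

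By the course of the log2 level over the 6 libraries, the families most like copia were invader4 (Pearson r = 0.994), micropia (0.984), mdg3 (0.976), rover (0.973) and the telomeric TART-A (0.971). These values describe 6 libraries in 2 genotypes and come mostly from the step between genotypes. The size of the step was not alike. From control to tau, invader4 went from 5088 ± 117 to 8058 ± 669 CPM (SD, n = 3 each), micropia from 8980 ± 264 to 10972 ± 206, and TART-A from 3248 ± 547 to 19922 ± 1826. mdg3 went from 16555 ± 218 to 19568 ± 482 CPM and rover from 11780 ± 346 to 16715 ± 1613. All of these families were called higher in edgeR, where 17.2% of all families were. All had every tau library above every control library, where 25.0% of all families did. They were picked for likeness to copia over the same libraries, so both counts largely follow from the choice and are no further result.

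Of the 35 copies, 23 passed the filter on low counts and were tested beside all other insertions, 1249 in all. In tau heads 11 copia copies rose, 0 fell and 12 did not pass, where 2.56% of all tested insertions were called higher and 3.36% lower. Copies may share reads that match several of them, so these are not independent rises. DESeq2 called 16 copia copies higher, against 3.1% of all insertions. The median log2 fold change was 1.82 over the 23 copies and -0.01 over the 1249 insertions. Of the 23, 21 had every tau library above every control library, against 12.9% of all tested insertions, 0 had every tau library below, against 16.3%, and copia{}49 and copia{}910 had overlapping groups. The filter asks for enough counts in as many libraries as a genotype has. copia{}1466, copia{}399, copia{}302 and copia{}840 had a control library with 0 counts, so they passed only with their tau libraries. All of them are among the 21, and copia{}1466 is among the 11 rises. The number of rises depends on single libraries. It was 7 without control 1 (1.28% of all insertions called higher) or control 2 (1.26%), and 4 without control 3 (0.663%). It was 8 without tau 1 (1.33%), and 6 without tau 2 (0.961%) or tau 3 (1.35%). No copy was called lower in any of these fits.

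**Figure D2:**
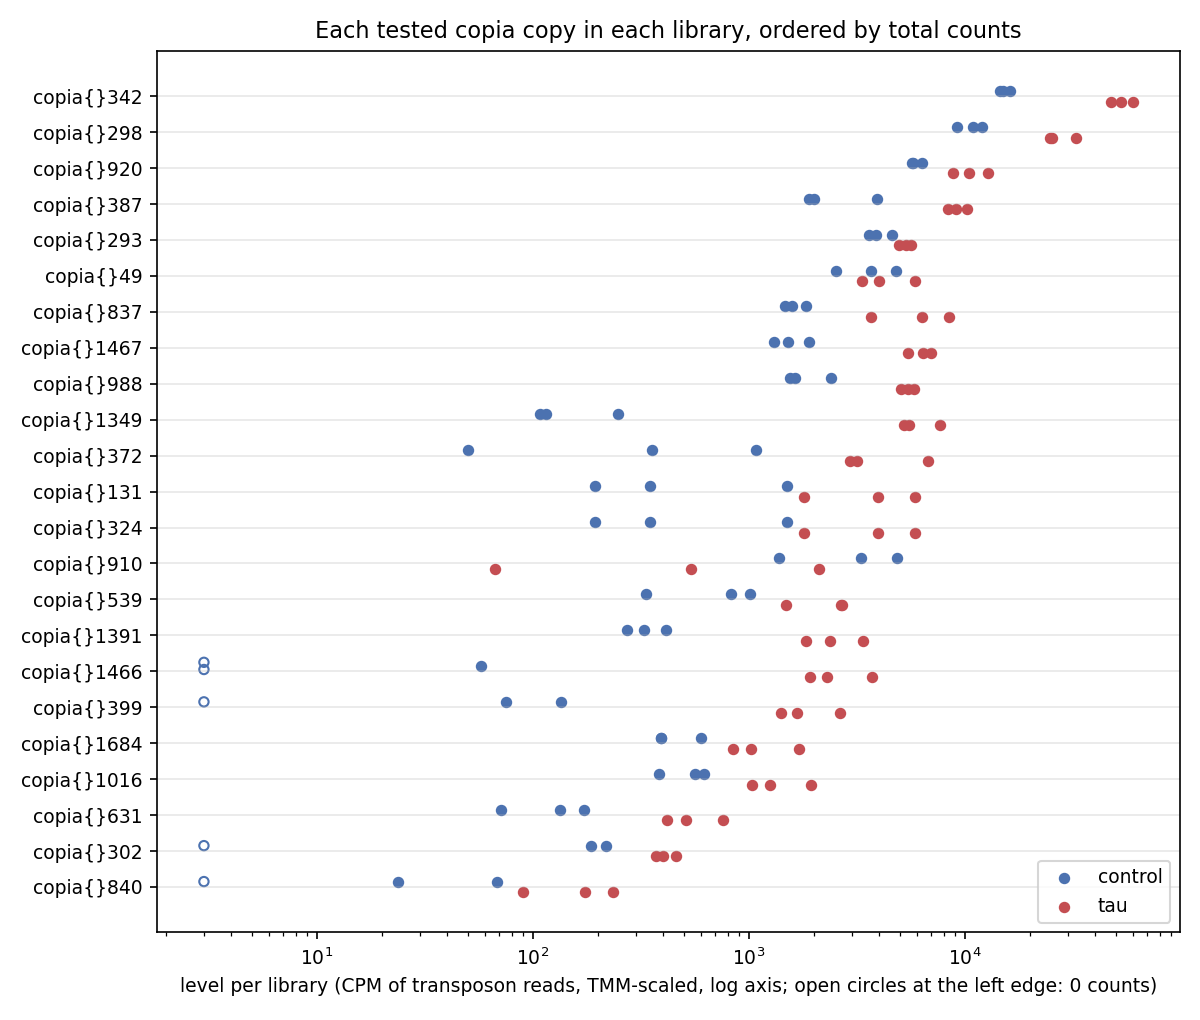
Level of each of the 23 tested copia copies in each library, in CPM on a log axis, with control libraries in blue and tau libraries in red, ordered from the most counts (top) to the fewest. Open circles at the left edge stand for libraries with 0 counts. The red points lie to the right of the blue ones in 21 copies, overlap in copia{}49, and lie mostly to the left in copia{}910.

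The copy with the most counts was copia{}342 (FBti0019151). It held 4315, 4503 and 3594 counts in control, or 14614, 16255 and 15045 CPM, and 3942, 12909 and 19329 counts in tau, or 52856, 47258 and 60212 CPM. Its level was tight within each genotype and the groups were widely separated. The log2 fold change was 1.80 ± 0.105 (SE, n = 3 each, edgeR adjusted p = 0.00101), and the call held with each library left out. copia{}298 (FBti0019113) came next, with 10960, 12006 and 9230.5 CPM in control and 25449, 24689 and 32771 in tau. Its log2 fold change was 1.36 ± 0.153 (edgeR adjusted p = 0.00725), and without control 3 the adjusted p was 0.0518.

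These 2 copies held 47.3% of the copia counts in control and 49.1% in tau, and they made up 51.9% of the difference in mean CPM between the genotypes. With the counts listed for copia{}342 taken out of the sum, the family had a log2 fold change of 1.45 ± 0.131 (edgeR adjusted p = 9.60e-05). Reads of copia{}342 that also match other copies may still be in that sum, so the value does not show how many copies gave rise to the RNA. The share of copia{}342 in the copia counts was 26.0%, 28.6% and 29.0% in control and 37.1%, 31.9% and 31.4% in tau. All 3 tau values lay above the control values, with means of 33.4% ± 3.16 and 27.9% ± 1.66 (SD, n = 3 each) and a two-sided exact permutation p of 0.1. The highest value came from the shallow tau 1, and without it the difference went from 5.57 to 3.75 percentage points. Copies of different length give different counts at the same level, and lengths were not used here, so these shares are shares of reads.

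Among the other copies that rose, several were moderately expressed in both genotypes. copia{}1467 (FBti0019469) went from 1301, 1906 and 1520 CPM in control to 6396, 5451 and 7000 in tau (log2 fold change 2.00 ± 0.182, edgeR adjusted p = 0.00379). copia{}988 (FBti0020099) stood at 2405, 1632 and 1545 CPM in control and at 5444, 5067 and 5828 in tau (1.55 ± 0.196, edgeR adjusted p = 0.0114). Both had tau libraries that lay close together and well clear of the controls, and the call of copia{}988 was lost without control 2 or control 3.

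copia{}1391 (FBti0019405) was lower in control, at 329, 415 and 272 CPM, and reached 2387, 1845 and 3371 CPM in tau (log2 fold change 2.90 ± 0.293, edgeR adjusted p = 0.00588). Each of its tau libraries was several times its highest control library, and the call held with each library left out. copia{}387 (FBti0019183) went from 1903, 3938 and 1993 CPM to 8340, 9090 and 10233 CPM (1.82 ± 0.313, edgeR adjusted p = 0.0295). Its control 2 stood apart from the other controls. copia{}837 (FBti0018968) held 1470, 1577 and 1834 CPM in control and 3661, 6344 and 8405 in tau (1.92 ± 0.312, edgeR adjusted p = 0.0270), and copia{}631 (FBti0018967), a weakly expressed copy with 21 to 48 counts in the control libraries, went from 126 ± 51.5 to 562 ± 176 CPM (2.16 ± 0.410, edgeR adjusted p = 0.0401). Of the 6 fits that leave out a library, the call of copia{}387 held only in the one without control 2, that of copia{}837 only in the one without tau 1, and that of copia{}631 in 0.

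The smallest called rise was that of copia{}920 (FBti0020031), the copy with the next most counts after copia{}298. It stood at 5707, 6303 and 5773 CPM in control and at 8796, 10411 and 12738 CPM in tau (log2 fold change 0.85 ± 0.148, edgeR adjusted p = 0.0300). Of the 6 fits that leave out a library, its call held only in the one without tau 1. Of other well expressed copies, copia{}293 (FBti0019110) held 4586, 3613 and 3860 CPM in control and 4948, 5616 and 5327 in tau (0.40 ± 0.120, edgeR adjusted p = 0.131). copia{}49 (FBti0019568) held 3688, 4783 and 2520 CPM in control and 3325, 5898 and 4019 in tau (0.27 ± 0.307, edgeR adjusted p = 0.736). Each held over 5% of the copia counts in control, ranked number 4 and number 5 there by mean CPM, and fell to number 9 and number 10 in tau.

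Whether copies moved unequally was tested with edgeR's diffSpliceDGE, which sets each copy's log2 fold change against that of its whole family and pools the spread over the copies of a family. Of the 23 copia copies, 3 were called higher relative to the family, 1 was called lower relative to it and 19 did not pass. Such a call is a difference from the family, not a rise or fall of the copy itself. Because the spread is pooled, its p-value does not measure how a single copy varies between libraries. It can be too small for uneven copies. Among the called copies, copia{}1466, copia{}399 and copia{}910 were uneven, with SEs of 1.24, 1.10 and 1.06 for their own log2 fold changes. Of these, copia{}1466 and copia{}399 passed the low-count filter only with their tau libraries. Over all families, 1.29% of tested insertions were called as higher than their family and 2.02% as lower. The 19 copies had differences from the family of -1.28 to 1.56 on the log2 scale, with adjusted p-values of 0.273 or higher.

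copia{}1349 (FBti0019364) was called both for its own rise and for its difference from the family. It held 32, 32 and 59 counts in control and 413, 1429 and 2459 in tau, or 108, 116 and 247 CPM against 5538, 5231 and 7660. It was a minor copy in every control library, with 0.192% to 0.476% of the copia counts, and held 3.53% to 3.99% in every tau library. Its own log2 fold change was 5.30 ± 0.414 (SE, n = 3 each, edgeR adjusted p = 0.00231), 3.75 above that of the family (diffSpliceDGE adjusted p = 8.93e-05). Both calls held with each library left out, and the copy went from rank 18 by mean CPM in control to rank 6 in tau.

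copia{}1466 (FBti0019468) had almost no counts in control. Its 17 control counts all lay in control 1, the other controls held 0, and the tau libraries held 143, 625 and 1192 counts, or 1917, 2288 and 3713 CPM. The log2 fold change was 7.00 ± 1.24 (edgeR adjusted p = 0.0309), 5.45 above the family (diffSpliceDGE adjusted p = 5.90e-06). The call of the change was kept in 1 of the 6 fits that leave out a library, that without control 1, while the difference from the family was called in all 6. The size of 7.00 rests on control 1: without it the controls held 0 counts, and the fitted 12.29 depends on the default prior count of the edgeR fit and is no bound. copia{}399 (FBti0019193) held 40, 0 and 18 counts in control and 125, 385 and 851 in tau, or a mean of 70.3 ± 67.9 against 1912 ± 654 CPM. It was called as 3.20 above the family (diffSpliceDGE adjusted p = 0.00784), a call that held in 4 of the 6 fits that leave out a library, while its own change did not pass (4.75 ± 1.10, edgeR adjusted p = 0.0727).

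copia{}910 (FBti0020021) was the 1 tested copy with a negative log2 fold change. It held 980, 384 and 1157 counts in control and 5, 148 and 681 in tau, or 3319, 1386 and 4843 CPM against 67.0, 542 and 2121. The levels were uneven within both genotypes and overlapped, since tau 3 lay above control 2, and the change of -1.77 ± 1.06 did not pass (edgeR adjusted p = 0.447). The size depends on tau 3, without which it was -3.25 (edgeR adjusted p = 0.205). As a share of copia counts it held 5.90%, 2.44% and 9.34% in control and 0.0470%, 0.365% and 1.10% in tau, which did not overlap. Its difference from the family was -3.32 (diffSpliceDGE adjusted p = 7.28e-04) and was called with each library left out. These calls pool the spread over copies and do not measure the uneven levels of copia{}910 itself. It went from rank 6 by mean CPM in control to rank 20 in tau.

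**Figure D3:**
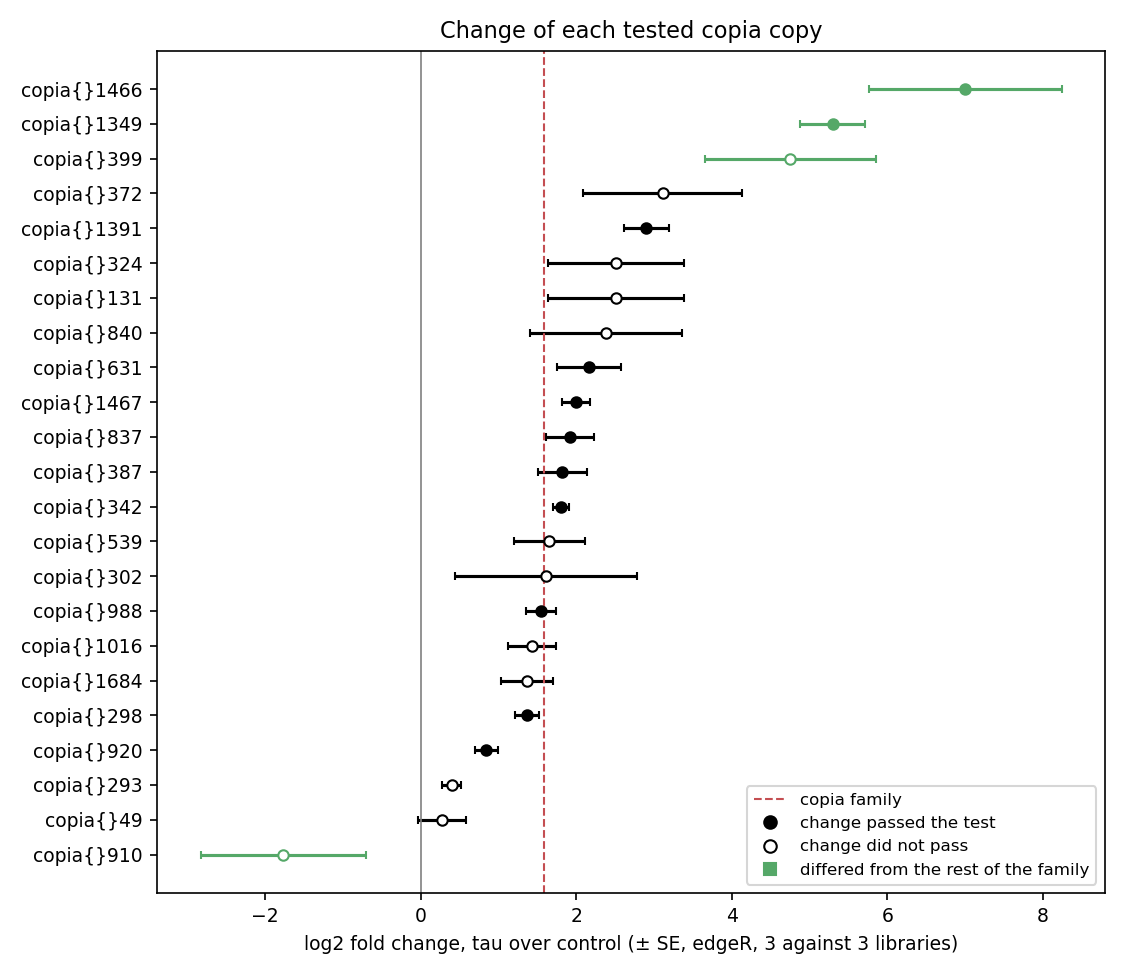
Log2 fold change of tau over control for each of the 23 tested copia copies, with bars for ± SE (edgeR, 3 against 3 libraries) and a dashed line at the family's 1.59. Filled points passed the test and open points did not. The 4 green copies, copia{}1466, copia{}1349, copia{}399 and copia{}910, differed from the rest of the family, and most others lie near the dashed line.

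The order of the copies was steadier within a genotype than between genotypes. Over the 23 copies, Spearman's rho of the shares of copia counts was 0.873 to 0.930 between control libraries, 0.885 to 0.935 between tau libraries and 0.559 to 0.776 between a control and a tau library. The copies share the reads of a library, so these values are a description. The effective number of copies, the inverse of the summed squared shares, was 6.30 to 7.34 in control and 5.39 to 6.84 in tau, with the lowest value in the shallow tau 1. The 3 copies with the most counts kept ranks 1 to 3 by mean CPM in both genotypes, and copies below them changed places.

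**Figure D4:**
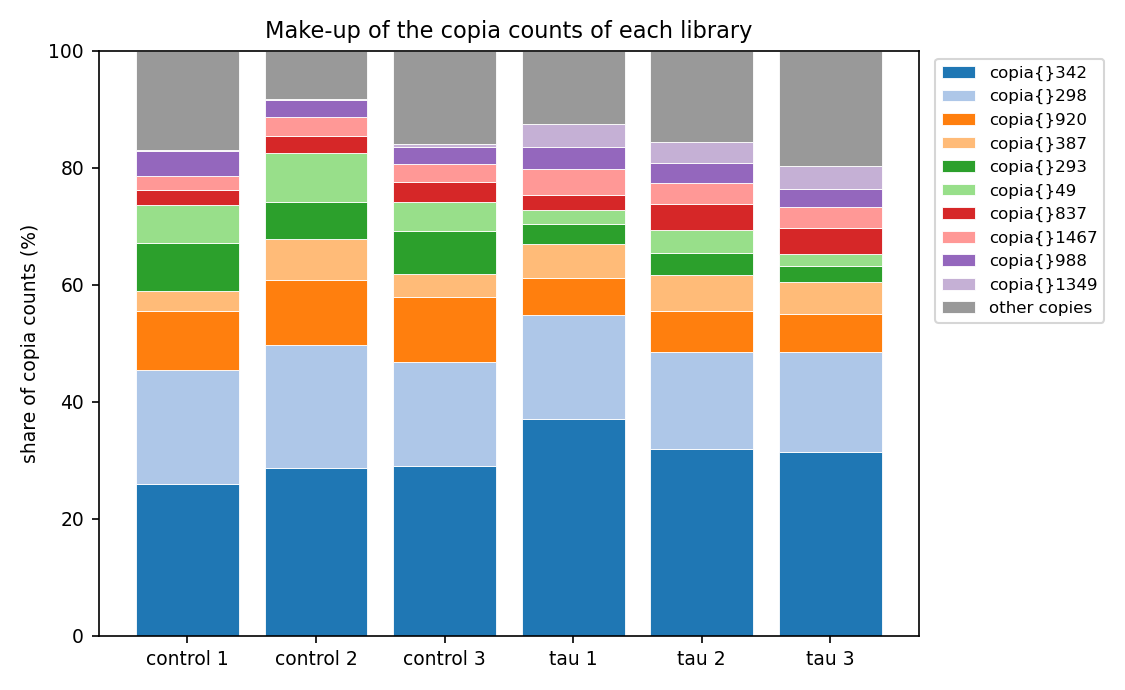
Share of the copia counts of each library (percent of all copia counts) held by the 10 copies with the most counts and by all others. copia{}342 and copia{}298 hold the lowest blocks in every library, and copia{}1349 is a thin line in the control bars and 3.53% to 3.99% of the tau bars.

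Single copies were noisier than the family sum. The median coefficient of variation of the 23 copies was 40.9% in control and 30.5% in tau, against 4.89% and 17.3% for the sum. copia{}131 (FBti0019059) and copia{}324 (FBti0019136) held the same 443, 54 and 83 counts in control and 134, 1083 and 1891 in tau. Across the table, 36 of the 1542 insertions with at least 30 counts shared all 6 counts with another insertion of their family, in 15 sets. Values of single copies depend on how reads with several matches were counted, a rule that is not stated. With the 2 copies counted once, the family's log2 fold change was 1.57 ± 0.115 (edgeR adjusted p = 2.57e-05). Zeros next to high counts also occurred: in 3 copies a library with 0 counts stood beside one of the same genotype with at least 30. copia{}860 held 138 counts in tau 3 and 0 in the other libraries, and copia{}302 held 55, 0 and 52 counts in control and 30, 126 and 119 in tau.

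The other copies that did not pass mostly stood higher in tau. copia{}372 had 319, 99 and 12 counts in control and 220, 862 and 2177 in tau (log2 fold change 3.11 ± 1.02, edgeR adjusted p = 0.168). The log2 fold change was 2.51 ± 0.873 for copia{}131 and copia{}324, 2.38 ± 0.980 for copia{}840, 1.66 ± 0.461 for copia{}539, 1.61 ± 1.17 for copia{}302, 1.43 ± 0.307 for copia{}1016 and 1.37 ± 0.332 for copia{}1684. Their edgeR adjusted p-values ran from 0.0598 for copia{}1016 to 0.554 for copia{}302. The 5 copies with counts that were too low to test were copia{}860, copia{}122, copia{}2248, copia{}5852 and copia{}4035, with 138, 41, 37, 15 and 6 counts in all. The 7 copies at 0 were copia{}67, copia{}434, copia{}466, copia{}997, copia{}2023, copia{}2250 and copia{}6185.

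The authors' deposited table lists 13 copia copies as higher and 0 as lower at an adjusted p under 0.05, where 4.34% of its insertions with an adjusted p are higher and 5.19% lower. These 13 hold 10 of the 11 rises called here. The exception is copia{}1466, which has a log2 fold change of 0.287 and an adjusted p of 0.575 in the authors' deposited table. For the same copy, the DESeq2 fit made here gave 7.08 (DESeq2 adjusted p = 5.26e-05). In the authors' deposited table copia{}1016, copia{}539 and copia{}1684 are also called, with log2 fold changes of 1.15, 1.16 and 0.98. The edgeR fit here gave larger values for them, of 1.43, 1.66 and 1.37. The deposited fold changes are thus not on the same footing as those given here, and the cause was not tested. The authors' deposited table gives no p-value for 2 copies with counts, copia{}372 and copia{}860.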

How the data were processed

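Total RNA libraries of 3 control and 3 tau samples were used. The authors selected transposon reads with sortmerna and FlyBase release 6.12, as the series design text says. The submitters' processing notes name Trimmomatic 0.36 and DESeq2 1.14.1. The deposited table holds raw counts per insertion, which were not normalised. It also holds the authors' signal of mean counts scaled by size factors, log2 fold changes, a Wald score and p-values. Neither the rule for reads with several matches nor the strand setting is stated.

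Insertion names came from a FlyBase symbol table that matched 5390 of 5392 insertions. The 2 without a name held 0 counts. Spellings of 1 family were merged, leaving 123 families. Counts were tested with edgeR 4.0.16 in R 4.3.3 (quasi-likelihood, TMM, default low-count filter, two-sided, Benjamini-Hochberg, threshold 0.05) on families, insertions and, with diffSpliceDGE, copies within families. SEs of edgeR log2 fold changes were worked back from the test, as the absolute log2 fold change over the square root of its F statistic. They are not a direct measure of spread between libraries. The edgeR fits were also run on simulated counts, drawn independently with no reads shared between copies. The other tests and fits were not simulated. Depth beyond transposon reads is unknown, so a change shared by all elements would not be seen. Insertions are those of the reference genome, and those of the fly stocks were not analysed here. Log2 levels used a prior count of 2, while the edgeR fits kept their own default prior count. Named copies were those past the threshold of either test or with at least 5% of a genotype's copia counts, and the 5 families most like copia were named by Pearson correlation. The members and lists were chosen with earlier results of these data known. The small RNA table and copia sequences were not used here, since no genome was at hand to tie them to the copies.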

Additional observations from a re-analysis of the deposited data

How the results depend on the processing

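The copia family rose in every alternative tried, with log2 fold changes of 1.45 to 1.60 under other scalings, filters, tools and sums and 1.44 to 1.69 with 1 library left out, and each passed the threshold. The ratio of copia shares was 2.73 without copia{}342 and 2.82 with same-count copies counted once. For copia counts over counts outside the Ty1/copia group, a different measure, the ratio was 3.21. The ratio of copia shares was 2.59 to 3.02 with 1 library left out, where 2 against 3 allows no p below 0.2. The difference in the share of copia{}342 was 3.75 to 6.60 percentage points with 1 library left out. The count of copies that rose was 9 to 16 under other scalings, filters and tools, with 16 by DESeq2, and 4 to 8 with 1 library left out. With the replicate block it was 2, copia{}342 and copia{}1349. For the block, the filter and the other scalings, the share of all insertions called is not given here. The counts of those fits are thus not read as a result about copia. No pairing of same-numbered samples is stated. Over families, correlations of their deviations from the group means were -0.026, 0.090 and 0.272. Pairs with unlike numbers had correlations of -0.326 to 0.229. The highest value was that of control 3 with tau 3, while control 1 correlated best with tau 3. Whether the samples were paired cannot be told from these values. The block moved the family to 1.58 and kept its call. The count of other Ty1/copia-group families called higher went from 0 to 1 with the replicate block and with DESeq2, and was 0 to 1 with 1 library left out. The usage test called 3 copies higher and 1 lower with all libraries under RLE factors, library totals, TMM factors without copia, no low-count filter, the replicate block and same-count copies counted once, and 2 to 4 higher and 1 lower with 1 library left out.

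Small changes that turned sign were those of frogger (-0.0060 with RLE factors, -0.069 with library totals, -0.040 with the authors' size factors, and -0.098 to 0.239 with 1 library left out), Xanthias (-5.56e-04 with RLE factors, -0.063 with library totals, -0.051 with the authors' size factors, and -0.024 to 0.078 with 1 library left out) and copia{}49 (-0.0015 without tau 2, and up to 0.516 with another library left out). Their cause was not tested. The match of small RNA entries to copia was not run. The lowest copia total was 10636 counts in tau 1, where 22 copies held at least 10 counts, against 21 to 25 in the other libraries. Alternatives on copies with the same counts were chosen after seeing the data.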
